A study of Mus musculus with 6 samples.

Results

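Gpnmb, Trem2, Cd68, Cd9, Lpl, Spp1, Mmp12, Atp6v0d2, Cd63 and Lgals3, 10 genes known from lipid-laden macrophages, were followed through each of 6 RNA-seq libraries of mouse adrenal gland. They were found by symbol in the deposited count table, where each of the 10 genes matched 1 of 53103 loci with a gene name. The set was selected on measured values, the strong difference of Gpnmb and Cd68 levels between WT libraries, so the differences among WT libraries are described here without a test. The glands came from female Armc5 knockout mice (KO, Armc5(-/-)) and from female wild-type mice (WT). All animals were 30 weeks old and of the mixed 129 sv X CD1 background, and the labels list no treatment. There were 3 KO and 3 WT libraries, numbered 1 to 3 in each group. The labels do not say whether each library came from a separate animal, so p-values measure the spread between these libraries. They do not state either which part of Armc5 was deleted or in which cells.

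Macrophages that engulf lipoproteins, myelin or dying cells store cholesterol as droplets and break down the remainder in lysosomes. TREM2, a surface receptor for lipids, signals through the adaptor TYROBP (DAP12) and the kinase SYK, and in mouse fat, artery wall and brain it is needed for a gene programme that includes Gpnmb, Cd9, Lpl, Spp1, Cd63 and Lgals3. In the mouse adrenal gland, macrophages are scattered through the cortex, and pigment-laden ones are known from the border of cortex and medulla in ageing glands. ARMC5 brings RNA polymerase II to the cullin 3 ubiquitin ligase as its substrate adaptor.

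The libraries held 70547288 to 130573434 counts. Armc5 had 3.58, 3.53 and 3.66 CPM (counts scaled to the size of the library) in the KO libraries, against 27.3, 25.3 and 27.8 CPM in the WT libraries, so the labels and the targeted gene matched (log2 fold change -2.90, adjusted p = 0.00041, edgeR quasi-likelihood test with Benjamini-Hochberg adjustment). Defining genes of the adrenal cortex and medulla were abundant in every library. The 7 medulla markers summed to 4212, 3843 and 3807 CPM in the KO libraries, against 1841, 2636 and 1969 CPM in the WT libraries. All 7 kept the groups apart, against 30.5% of all tested loci. Of the 7, Chga and Dbh rose in KO by edgeR (adjusted p = 0.0440 and 0.0464), against 1.41% of all tested loci called higher. Both calls were lost with the omission of any library but WT replicate 2. The 6 endothelial markers summed to 548, 445 and 549 CPM in the KO libraries, against 628, 705 and 718 CPM in the WT libraries. Mitochondrial loci took 13.2% to 13.7% of counts in the KO libraries and 14.8% to 17.6% in the WT libraries. Several libraries stood apart. KO replicate 3 had a summed 2814 CPM of hepatocyte genes, against at most 18.3 CPM in any other library. X-zone markers, which mark the inner cortical zone of young females, summed to 158, 3.68 and 42.7 CPM in KO replicates 1, 2 and 3, against 153, 0.271 and 0.436 CPM in WT replicates 1, 2 and 3. Mast cell markers summed to 5.14, 9.10 and 7.51 CPM in the KO libraries and to 55.7, 41.6 and 13.4 CPM in the WT libraries. A single marker, Kit, made up most of this sum in the KO libraries and in WT replicate 3. WT replicates 2 and 3 stood apart in the summed level of the 10 genes.

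All 10 genes had their highest level in WT replicate 2, and 7 of them had their second highest in WT replicate 3. Among all 21358 tested loci, 16.1% were highest in WT replicate 2, and 6.54% were highest there and second in WT replicate 3. The summed level of the 10 genes was 263, 224 and 291 CPM in the KO libraries, against 271, 2585 and 1199 CPM in WT replicates 1, 2 and 3. WT replicate 1 thus lay inside the range of the KO libraries, while the other WT libraries lay far above it. In bulk tissue, fewer cells of a type and less RNA per cell cannot be told apart.

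Gpnmb, a transmembrane glycoprotein of macrophages under lysosomal load, had 12.3, 1.79 and 9.0 CPM in KO replicates 1, 2 and 3, against 1.02, 1418 and 599 CPM in WT replicates 1, 2 and 3. These levels rest on 1357, 136 and 1165 counts in the KO libraries and on 103, 183077 and 48061 counts in the WT libraries. The groups overlapped, because WT replicate 1 had the lowest level of all 6 libraries. WT replicate 2 was 1393-fold and WT replicate 3 was 589-fold above WT replicate 1. On the scale of log2(CPM + 0.01), Gpnmb ranged over 10.43 among the WT libraries, against a median of 0.52 over all tested loci, and only Klk1b22 ranged more widely there. Among the KO libraries it ranged over 2.78, against a median of 0.39 over all tested loci.

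Atp6v0d2, a d subunit of the proton pump that acidifies lysosomes (V-ATPase) found in macrophages and osteoclasts, followed Gpnmb most closely. Atp6v0d2 reached the mean of 1 CPM needed for that ranking only through WT replicates 2 and 3. It had 0.824, 0.144 and 1.52 CPM in the KO libraries, against 0.109, 123 and 38.7 CPM in WT replicates 1, 2 and 3. KO replicate 2 and WT replicate 1 held only 11 counts each, so their 95% intervals (exact Clopper-Pearson, counting error only) ran from 0.0721 to 0.258 CPM and from 0.0542 to 0.194 CPM. Both are low libraries that cannot be ordered at this depth, whereas the counts of 15836 and 3107 in WT replicates 2 and 3 left no overlap with either. Its log2 range among WT libraries was 10.01, exceeded by Klk1b22, Gpnmb and the X-zone gene Akr1c18.

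Mmp12, the elastase that macrophages secrete, had 10.9, 4.62 and 8.64 CPM in the KO libraries, against 12.8, 226 and 74.6 CPM in WT replicates 1, 2 and 3. Every KO library was below every WT library, but WT replicate 1 was nearer to the KO libraries than to the other WT libraries. Lgals3, galectin 3, a carbohydrate-binding protein that gathers on damaged lysosomes, had 9.93, 7.94 and 9.39 CPM in the KO libraries, against 7.15, 126 and 80.4 CPM in WT replicates 1, 2 and 3. Cd68, a heavily glycosylated lysosomal membrane protein used as a macrophage stain, had 14.6, 21.0 and 17.0 CPM in the KO libraries, against 16.1, 169 and 79.5 CPM in WT replicates 1, 2 and 3. For Lgals3 and Cd68 the groups overlapped at WT replicate 1. The log2 ranges among WT libraries were 4.14 for Mmp12, 4.14 for Lgals3 and 3.39 for Cd68. At least 96.7% of tested loci had a narrower range than each of these. The KO libraries were close to each other in Lgals3 and Cd68, with log2 ranges of 0.32 and 0.53.

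**Figure D1:**
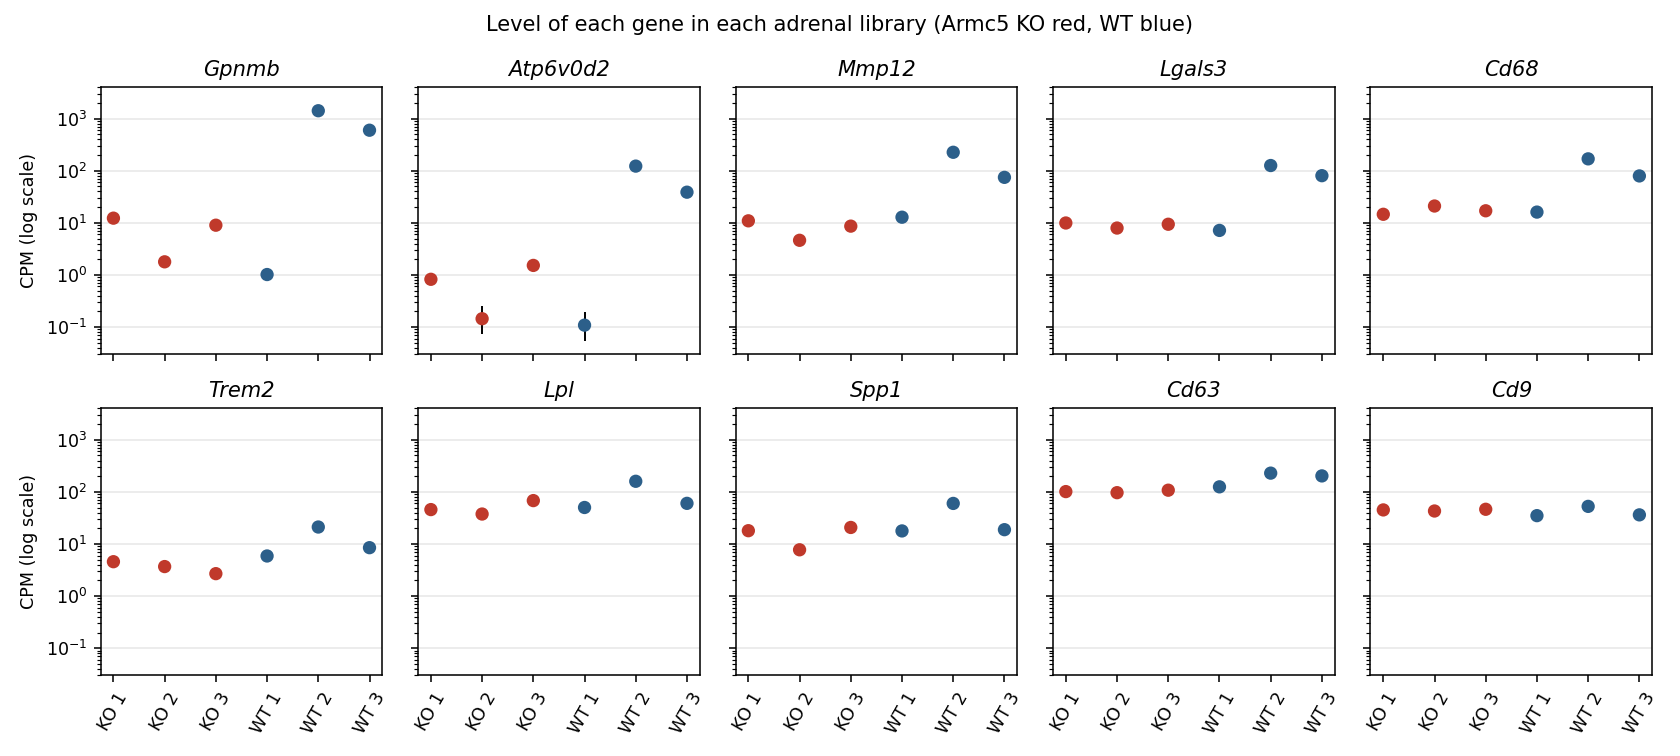
Level of each of the 10 genes in each library, in CPM on a log axis, with KO libraries in red and WT libraries in blue; bars are 95% counting intervals (exact Clopper-Pearson), mostly hidden by the points. Gpnmb reached 1418 and 599 CPM in WT replicates 2 and 3 and at most 12.3 CPM elsewhere, whereas Cd9 stayed between 35.0 and 52.7 CPM.

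Trem2, the lipid receptor itself, was the lowest of the 10 genes per kilobase of locus in WT replicates 2 and 3. It had 4.57, 3.69 and 2.70 CPM in the KO libraries, against 5.89, 21.2 and 8.50 CPM in WT replicates 1, 2 and 3. The groups did not overlap, and its log2 range among WT libraries was 1.85. Spp1, the secreted matrix protein osteopontin, had 18, 7.74 and 20.8 CPM in the KO libraries, against 17.8, 60.1 and 18.8 CPM in WT replicates 1, 2 and 3. Its locus also holds the predicted gene Gm42793, whose reads cannot be separated from it. Lpl, the lipase that frees fatty acids from lipoproteins, had 45.8, 37.6 and 68.1 CPM in the KO libraries, against 50.2, 159.9 and 60.3 CPM in WT replicates 1, 2 and 3. Spp1 and Lpl were thus high in WT replicate 2 alone, with WT replicate 3 inside the range of the KO libraries.

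The tetraspanins, membrane-organising proteins, were the most even. Cd63, which sits in late endosomes and lysosomes, had 101, 96.7 and 108 CPM in the KO libraries, against 125, 229 and 203 CPM in WT replicates 1, 2 and 3, with no overlap between the groups. Cd9, a plasma membrane tetraspanin, had 45.1, 43.0 and 46.4 CPM in the KO libraries, against 35.0, 52.7 and 36.3 CPM in WT replicates 1, 2 and 3, and the groups overlapped. The log2 range among WT libraries was 0.87 for Cd63, wider than in 70.1% of tested loci. For Cd9 it was 0.59, next to the median of 0.52 over all tested loci.

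**Figure D2:**
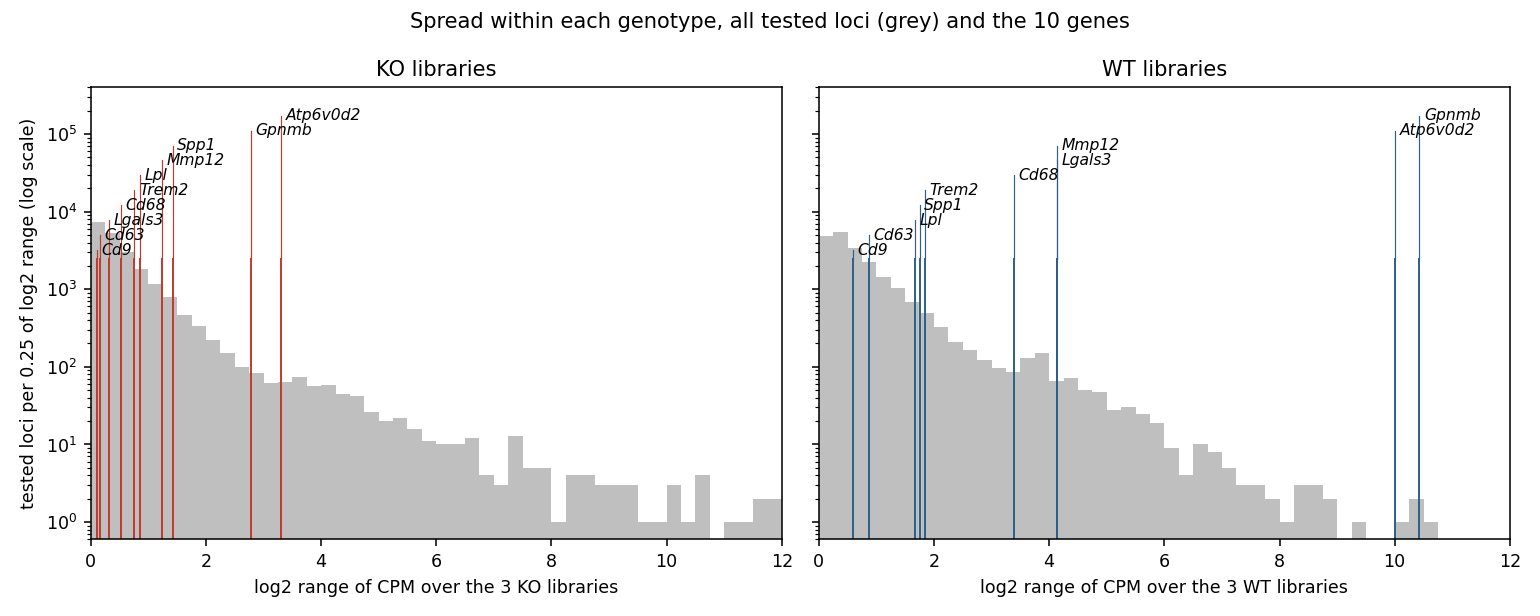
Log2 range of CPM within the 3 KO libraries (left) and the 3 WT libraries (right) for all 21358 tested loci (grey histogram, log axis) and for the 10 genes (lines). Gpnmb and Atp6v0d2 sit at 10.43 and 10.01 among the WT libraries, near the end of the distribution, and at 2.78 and 3.31 among the KO libraries.

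The order of the 10 genes by level per kilobase of locus also changed between WT libraries. In all 3 KO libraries and in WT replicate 1, Cd9 stood first, at 21.9, 20.9 and 22.5 CPM per kilobase in the KO libraries and 17.0 in WT replicate 1. In WT replicates 2 and 3 Gpnmb stood first, at 217 and 91.6 CPM per kilobase, ahead of Cd68 at 107 and 50.1. In those libraries Cd9 had 25.6 and 17.6 CPM per kilobase. The same Gpnmb level was 1.88, 0.273 and 1.38 CPM per kilobase in the KO libraries and 0.156 in WT replicate 1, which placed it sixth, ninth and sixth in the KO libraries and ninth in WT replicate 1. The deposited lengths of Gpnmb, Cd9, Lpl and Cd63 belong to loci that reach beyond the annotated gene, so these levels per kilobase are approximate.

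The 10 genes lie on different chromosomes except for Gpnmb and Cd9, which share chromosome 6. The Gpnmb locus of the table (GRCm38, chr6:49036546-49189012, plus strand) extends past the annotated gene end at 49070929 and contains Malsu1 on the same strand, while it lies itself within Igf2bp3 on the other. Malsu1 had 2038, 1307 and 1713 counts in the KO libraries, against 1676, 1813 and 1528 counts in the WT libraries, and Igf2bp3 had 4 to 32 counts in any library. Neither showed the difference among WT libraries seen in Gpnmb. Gm19253, a predicted gene inside the locus on the same strand, had 0, 0 and 3 counts in the KO libraries, against 0, 50 and 16 counts in WT replicates 1, 2 and 3, a like order at far lower counts. The locus of Mmp12 overlaps Mmp1b, which had 0 counts in every library. Rdh5 and Bloc1s1, which overlap the Cd63 locus on the opposite strand and are merged in the table, had 1298 to 2304 counts. Whether the counting used strand is not given in the sources used here.

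RefSeq promoter windows (GRCm38.p6, 250 bases before to 50 after an annotated start) were at hand for 8 of the 10 genes, in 10 windows; Lpl and Atp6v0d2 had none. Both strands were searched for 4 motifs. The E-box core CACGTG, the letters bound by MITF, TFEB and TFE3, was in 0 of the 10 windows and in 7.15% of all 32851 windows. Its extended form TCACGTGA, which contains it, was in 0 of the 10 windows and in 0.974% of all windows. GAGGAAGT, a form of the PU.1 site, was in 2 of the 10 windows, those of Spp1 and of the first start of Mmp12, and in 3.2% of all windows. TGANTCA, the AP-1 motif, was in 4 of the 10 windows and in 7.81% of all windows, and this motif was added to the search after the data had been seen. The windows that hold it are shown with the AP-1 letters in capitals, read 5′ to 3′ on the strand of the gene. Being highest in WT replicate 2 does not set their 4 genes apart, since all 10 genes were highest there. A match describes these letters and not a bound site.
Gpnmb, chr6:49036268-49036567, plus strand: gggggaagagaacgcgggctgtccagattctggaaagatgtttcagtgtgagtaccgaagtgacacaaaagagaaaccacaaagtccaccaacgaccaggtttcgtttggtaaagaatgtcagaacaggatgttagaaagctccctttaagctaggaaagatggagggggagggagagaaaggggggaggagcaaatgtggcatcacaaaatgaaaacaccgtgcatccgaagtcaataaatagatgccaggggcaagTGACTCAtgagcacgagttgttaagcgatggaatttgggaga
Cd68, chr11:69666121-69666420, minus strand: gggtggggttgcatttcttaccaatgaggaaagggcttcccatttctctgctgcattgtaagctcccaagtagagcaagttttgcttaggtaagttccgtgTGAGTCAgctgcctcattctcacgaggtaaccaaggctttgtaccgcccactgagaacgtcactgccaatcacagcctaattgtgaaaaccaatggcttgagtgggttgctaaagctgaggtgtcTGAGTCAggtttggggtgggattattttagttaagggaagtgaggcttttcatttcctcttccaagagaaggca
Trem2, chr17:48346151-48346450, plus strand: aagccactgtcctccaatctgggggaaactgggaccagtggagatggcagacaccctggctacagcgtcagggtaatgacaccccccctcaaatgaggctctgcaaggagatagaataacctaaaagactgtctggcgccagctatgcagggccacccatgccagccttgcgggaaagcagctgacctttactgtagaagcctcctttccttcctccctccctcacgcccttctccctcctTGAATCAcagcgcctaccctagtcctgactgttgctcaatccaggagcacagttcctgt
Mmp12, second annotated start, chr9:7347124-7347423, plus strand: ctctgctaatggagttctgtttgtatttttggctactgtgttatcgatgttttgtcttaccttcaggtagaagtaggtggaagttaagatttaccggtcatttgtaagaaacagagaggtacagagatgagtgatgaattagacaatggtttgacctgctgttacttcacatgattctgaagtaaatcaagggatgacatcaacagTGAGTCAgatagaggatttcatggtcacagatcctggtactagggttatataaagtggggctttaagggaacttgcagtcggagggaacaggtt
The Cd68 window holds 2 matches, 149 and 24 bases before the start, and those of Trem2 and Mmp12 lie 9 and 44 bases before it. The Gpnmb match lies 8 bases past the RefSeq start of its window. The Gpnmb locus given above starts further downstream, at 49036546, so the match lies before that start.

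The comparison of genotypes asks which transcripts differ when Armc5 is lost. Of the 10 genes, 9 were lower and 1 was higher in KO by the fitted log2 fold change, but 0 of 10 passed an adjusted p of 0.05 by edgeR's quasi-likelihood test with Benjamini-Hochberg adjustment over all tested loci, where 1.84% of loci were called, 1.41% higher and 0.431% lower in KO. At an unadjusted p under 0.05 by the same edgeR test there were 7 of 10, against 22.2% of all tested loci. DESeq2 called 6 of 10, Gpnmb, Trem2, Mmp12, Atp6v0d2, Cd63 and Lgals3, where it called 12.4% of all loci. The WT libraries that chose the genes also enter this test, so the counts are descriptions and not independent results. The groups did not overlap in 3 of 10, Trem2, Mmp12 and Cd63, each lower in KO. Among all tested loci this share was 14.2% with KO lower and 30.5% in either direction. The median log2 fold change of the 10 genes was -2.01, against -0.0063 over all tested loci, and it was -1.19 without WT replicate 2.

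The fold changes of the most uneven genes carried wide errors. Gpnmb averaged 7.69 ± 5.37 CPM in KO libraries and 673 ± 711 CPM in WT libraries (SD, n = 3 each). Its log2 fold change was -6.45 with an SE of 2.14 (edgeR quasi-likelihood test with Benjamini-Hochberg adjustment, adjusted p = 0.158). Each SE of a fold change was worked back from the F statistic of this test. For Atp6v0d2 the log2 fold change was -5.98 ± 2.02 (SE; edgeR adjusted p = 0.163). The SD of Gpnmb in WT exceeded its mean, with WT replicate 1 at 1.02 CPM. Mmp12 averaged 8.06 ± 3.19 CPM in KO libraries and 104.5 ± 109.7 CPM in WT libraries (SD, n = 3 each), and the fitted log2 fold change was -3.69 ± 1.00 (SE; adjusted p = 0.109 by edgeR). Lgals3 had a fitted log2 difference of -2.97 ± 0.90 (SE; adjusted p = 0.136 by edgeR) and Cd68 one of -2.33 ± 0.76 (SE; edgeR adjusted p = 0.152). None of these 5 differences passed the test, which sets them against the spread between libraries.

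Smaller differences had smaller errors. Cd63 averaged 102 ± 5.6 CPM in KO libraries and 185.7 ± 54.1 CPM in WT libraries (SD, n = 3 each), and its adjusted p of 0.0988 by edgeR was the smallest of the 10 (log2 fold change -0.86 ± 0.22, SE). Trem2 averaged 3.65 ± 0.94 CPM in KO libraries and 11.9 ± 8.18 CPM in WT libraries (SD, n = 3 each), and the fitted log2 fold change was -1.70 ± 0.50 (SE; adjusted p = 0.130 by edgeR). Spp1 and Lpl, high in a single WT library, had log2 fold changes of -1.06 ± 0.58 and -0.84 ± 0.48 (SE; edgeR adjusted p = 0.338 and 0.351). Cd9 averaged 44.8 ± 1.71 CPM in KO libraries and 41.3 ± 9.89 CPM in WT libraries (SD, n = 3 each), and the fitted log2 fold change was 0.12 ± 0.17 (SE; adjusted p = 0.725 by edgeR).

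The edgeR calls depended on WT replicate 1, the low library in the difference that chose the genes, so the count without it is a description and no support. Without it, edgeR called 5 of the 10 genes lower in KO, against 0.818% of all loci called lower: Gpnmb (adjusted p = 0.0415), Cd68 (0.0363), Mmp12 (0.0449), Cd63 (0.0269) and Lgals3 (0.0239), each from edgeR's quasi-likelihood test with Benjamini-Hochberg adjustment. Without WT replicate 2, none of the 10 was called, and the log2 fold change moved to -5.25 for Gpnmb, -1.42 for Cd68, -0.22 for Spp1 and -0.11 for Lpl. Without WT replicate 3, none was called, and Gpnmb stood at -6.52 and Cd68 at -2.40. Without KO replicate 3, the library with hepatocyte RNA, none was called, and Gpnmb stood at -6.57 and Cd68 at -2.31.

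**Figure D3:**
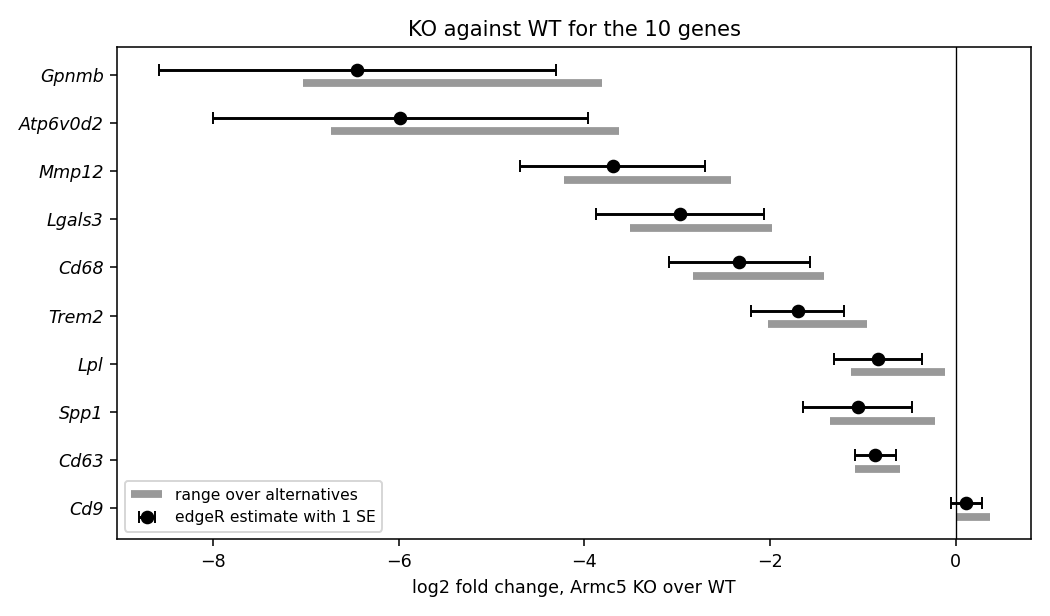
Log2 fold change of KO over WT for the 10 genes, as edgeR's estimate with 1 SE (black) and the range over the alternative settings and left-out libraries (grey bar). The SE was worked back from the F statistic of the test. The estimates run from -6.45 for Gpnmb to 0.12 for Cd9, and none of the 10 grey bars crosses 0.

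General macrophage markers were also highest, as a sum, in WT replicate 2, but by a smaller factor. In the list of 20, 0 were called in either direction by edgeR, against 1.84% of all tested loci. An unadjusted edgeR p under 0.05 was found for 9, against 22.2% of all tested loci. DESeq2 called 7, of which 1 was higher and 6 were lower in KO, against 12.4% of all loci in either direction. The median log2 fold change of the 20 was -0.56, or -0.20 without WT replicate 2, where 12 of 20 were negative. The 18 that have a locus of their own summed to 410, 475 and 444 CPM in the KO libraries, against 394, 1329 and 601 CPM in WT replicates 1, 2 and 3. Expressed as a percentage of that sum, Gpnmb was at 3.0%, 0.375% and 2.03% in the KO libraries, against 0.258%, 107% and 99.7% in WT replicates 1, 2 and 3. Cd68 was at 3.56%, 4.42% and 3.84% in the KO libraries, against 4.08%, 12.7% and 13.2% in the WT libraries. On this measure WT replicates 2 and 3 were alike in Gpnmb and in Cd68. The sum leaves out the merged locus of Lyz2 and Lyz1, at 86.8, 670 and 453 CPM in WT replicates 1, 2 and 3. The percentages therefore depend on that omission. Trem2 was at 1.12%, 0.776% and 0.608% in the KO libraries, against 1.49%, 1.59% and 1.42% in the WT libraries, so the WT libraries were alike. Spp1 was at 4.39%, 1.63% and 4.68% in the KO libraries, against 4.52%, 4.52% and 3.14% in the WT libraries.

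The macrophage markers did not move as a block. Of the 20, 12 were highest in WT replicate 2 and 8 had WT replicate 3 second, against 16.1% and 6.54% of all tested loci. Mrc1, the mannose receptor, Adgre1, which encodes F4/80, the complement gene C1qa and Csf1r, the receptor of the main macrophage growth factor, were among the more even. They differed by 1.39-fold, 1.56-fold, 1.57-fold and 2.05-fold between the highest and the lowest library. Laptm5, Cd53 and Mpeg1, each highest in WT replicate 2, differed by 6.99-fold, 6.29-fold and 6.20-fold. Cd163 differed by 6.16-fold and was highest in KO replicate 3. Lysozyme, counted as the merged locus of Lyz2 and Lyz1, differed by 15.5-fold, with 54.2, 43.4 and 46.2 CPM in the KO libraries, against 86.8, 670 and 453 CPM in the WT libraries. Cx3cr1, a receptor of tissue-resident macrophages, had 5.88, 27.3 and 21.2 CPM in the KO libraries, against 17.6, 2.25 and 11.47 CPM in the WT libraries, and was lowest in WT replicate 2. The integrin subunit Itgam had 2.99, 4.19 and 5.19 CPM in the KO libraries, against 6.97, 17.98 and 10.3 CPM in the WT libraries (edgeR adjusted p = 0.0990). The part of macrophage number in the levels of the 10 genes was not tested.

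Other genes of lipid-associated macrophages had lower levels in KO by their median, with smaller differences than the 10 genes. Of 30 tested, 0 were called by edgeR, against 1.84% of all tested loci. An unadjusted edgeR p under 0.05 was found for 13, against 22.2% of all tested loci. DESeq2 called 12 of the 30, against 12.4% of all loci. The log2 fold change was negative in 27, the median was -0.77 (-0.50 without WT replicate 2) against -0.0063 over all tested loci, and 25 were highest in WT replicate 2. Ctsd, the lysosomal protease cathepsin D, counted together with Ifitm10, had 475, 427 and 458.5 CPM in the KO libraries, against 687, 1184 and 900 CPM in the WT libraries (edgeR adjusted p = 0.0612). Plin2, the coat protein of lipid droplets, had 71.7, 63.0 and 64.2 CPM in the KO libraries, against 104, 170 and 102 CPM in the WT libraries (edgeR adjusted p = 0.0816). In both genes every KO library was below every WT library, WT replicate 1 included. Lgals1 and Anxa5 had adjusted p of 0.0574 and 0.0852 by edgeR, with log2 fold changes of -0.65 ± 0.12 and -0.69 ± 0.16 (SE). Steroid-producing cells also express genes of this list, among them Plin2, Abca1 and Lipa. Adrenal cortex genes summed to 19410 to 21337 CPM in the KO libraries and to 23042 to 38672 CPM in the WT libraries, lowest among WT in replicate 2.

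The genes that act with TREM2 were highest in WT replicate 2 for 9 of 10. Of the 10, 0 were called by edgeR, 2 had an unadjusted edgeR p under 0.05 and DESeq2 called 1. The same shares over all loci were 1.84%, 22.2% and 12.4%. The median log2 fold change of the 10 was -0.73, but -0.17 without WT replicate 2, where 7 of 10 were negative. Tyrobp, the adaptor that TREM2 needs, had 7.63, 9.18 and 8.84 CPM in the KO libraries, against 7.43, 34.3 and 20.4 CPM in WT replicates 1, 2 and 3. Syk, the kinase it recruits, had 8.79, 6.43 and 7.11 CPM in the KO libraries, against 8.75, 52.5 and 21.5 CPM in the WT libraries. Spi1, which encodes the myeloid factor PU.1, had 4.85, 4.90 and 5.91 CPM in the KO libraries, against 4.43, 21.6 and 7.97 CPM in the WT libraries. In all of these WT replicate 1 lay within or just below the range of the KO libraries. Inpp5d, a lipid phosphatase that restrains this pathway, had a fitted log2 difference of -0.54 ± 0.24 (SE; adjusted p = 0.2503 by edgeR).

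MITF, TFEB and TFE3 are factors known to drive lysosomal genes and, in macrophages and melanocytes, Gpnmb, and TFEC is the remaining member of their family. Of the 4, 0 were called by edgeR, 1 had an unadjusted edgeR p under 0.05 and DESeq2 called 1. Among all loci these shares were 1.84%, 22.2% and 12.4%. The median log2 fold change of the 4 was -0.36, or -0.24 without KO replicate 1. Tfec, the member restricted mainly to macrophages, had 0.254, 0.0788 and 0.387 CPM in the KO libraries, against 0.405, 3.23 and 1.60 CPM in WT replicates 1, 2 and 3 (log2 fold change -2.83 ± 0.86, SE; edgeR adjusted p = 0.135). Mitf had 12.6, 21.3 and 20.5 CPM in the KO libraries, against 24.9, 28.0 and 23.8 CPM in the WT libraries. Tfeb and Tfe3 had log2 fold changes of -0.22 and -0.09.

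The V-ATPase, to which Atp6v0d2 belongs, held called genes. Of 16 other subunits tested, 2 fell in KO by edgeR, against 0.431% of all tested loci. All 16 had a negative log2 fold change and the median was -0.48. The groups did not overlap in 14 of 16, against 30.5% of all tested loci, or 14.2% with KO lower. Atp6v1a, the catalytic subunit, had 173, 156 and 166 CPM in the KO libraries, against 264, 301 and 292 CPM in the WT libraries (log2 fold change -0.79 ± 0.09, SE; edgeR quasi-likelihood test with Benjamini-Hochberg adjustment, adjusted p = 0.0205). Atp6v1h, a regulatory subunit, had 152, 135 and 147 CPM in the KO libraries, against 268, 245 and 298 CPM in the WT libraries (log2 fold change -0.90 ± 0.11, SE; edgeR adjusted p = 0.0205). Atp6v0d1, the d subunit of most tissues, had 59.6, 56.8 and 60.8 CPM in the KO libraries, against 76.1, 92.3 and 89.3 CPM in the WT libraries (edgeR adjusted p = 0.0550). Here WT replicate 1 lay with the other WT libraries, unlike in Atp6v0d2. Both calls depended on the setting. edgeR called 0 subunits with equal Rn7sk counts and 0 without any single one of KO replicates 1, 2 and 3 or WT replicate 3. Without WT replicate 1 it called 4 lower in KO, against 0.818% of all loci. DESeq2 called 12, against 12.4% of all loci. Scaling by total counts or by Rn7sk moved the median log2 fold change of all loci to 0.22 and 0.19. The subunit median itself was -0.26 with total counts and -0.29 with equal Rn7sk counts, and 13 of 16 were negative under each. Relative to the median of all loci it was -0.48 under both, as under the main scaling. Scaling shifts all loci by about the same amount, so this agreement was fixed in advance. The summed medulla, cortex and endothelial markers and the mitochondrial share also kept the groups apart, and their part in the subunit levels was not tested.

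Among the relatives of the 2 tetraspanins, of Lpl and of Lgals3, edgeR called no gene. Over all loci, edgeR called 1.84%, 22.2% had an unadjusted edgeR p under 0.05 and DESeq2 called 12.4%. Of 12 other tetraspanins, 0 were called by edgeR, 3 had an unadjusted p under 0.05 and DESeq2 called 2. Their median log2 fold change was -0.08, which became 0.15 with total counts, 0.12 with equal Rn7sk counts, 0.05 when KO replicate 1 was left out and -0.15 when KO replicate 3 was. Of 14 partners of lipoprotein lipase tested out of 16, 0 were called by edgeR, 3 had an unadjusted p under 0.05, DESeq2 called 0 and limma-trend 1. Their median was -0.11, which became 0.11 and 0.09 under those scalings, -0.31 without KO replicate 3 and 0.02 without WT replicate 2. Gpihbp1, which anchors the lipase to capillaries, had 16.6, 15.1 and 15.8 CPM in the KO libraries, against 13.8, 11.9 and 11.2 CPM in the WT libraries (edgeR adjusted p = 0.151). Of 6 other galectins, 0 were called by edgeR, 2 had an unadjusted p under 0.05 and DESeq2 called 2. Their median was 0.47, or 0.30 without KO replicate 2. Among them Lgals9 had 51.4, 52.0 and 66.0 CPM in the KO libraries, against 16.6, 39.5 and 24.9 CPM in the WT libraries (edgeR adjusted p = 0.127). Galectins thus included values opposite in sign to that of Lgals3.

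Of 11 matrix metalloproteinases and inhibitors tested besides Mmp12, 1 fell in KO by edgeR, against 0.431% of all tested loci. The median log2 fold change of the 11 was -0.27, but 0.016 without WT replicate 2, where 5 of 11 were negative. Mmp27 had 0.0815, 0.0394 and 0.162 CPM in the KO libraries, against 1.31, 2.58 and 3.04 CPM in the WT libraries (log2 fold change -4.54 ± 0.58, SE; edgeR adjusted p = 0.0262). It was higher in all 3 WT libraries, WT replicate 1 included, than in any KO library, but the call was lost with the omission of any single one of the 3 KO libraries or of WT replicate 3. Mmp8, a collagenase, had 0.109, 0.0788 and 0.131 CPM in the KO libraries, against 0, 3.67 and 2.46 CPM in WT replicates 1, 2 and 3. Of 8 receptors of osteopontin and GPNMB, 0 were called by edgeR, 2 had an unadjusted edgeR p under 0.05 and DESeq2 called 2. The same shares over all loci were 1.84%, 22.2% and 12.4%. Without KO replicate 2, edgeR called 1 of the 8. The median of the 8 was -0.34, or -0.15 without WT replicate 2. The integrin subunit Itgav had 62.3, 134 and 64.9 CPM in the KO libraries, against 199.7, 164 and 189.9 CPM in the WT libraries (edgeR adjusted p = 0.123).

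Other cell types that use some of the 10 genes were read through their markers. Melanocytes and osteoclasts express Gpnmb, and osteoclasts express Atp6v0d2 as well. The melanocyte genes Tyr, Mlana and Tyrp1 were at no more than 0.0725 CPM in any library. The list of 6 summed to 9.82, 11.9 and 12.4 CPM in the KO libraries and to 13.5, 15.1 and 12.5 CPM in the WT libraries, mostly from Oca2. Calcr, which defines osteoclasts, had 0 counts in every library and Oscar was at no more than 0.0889 CPM. The osteoclast list of 5 summed to 36.5, 39.2 and 33.3 CPM in the KO libraries and to 29.7, 53.5 and 39.2 CPM in the WT libraries. Nfatc1 and Tnfrsf11a made up nearly all of it. Of the 5, 3 passed the filter, and all 3 were highest in WT replicate 2, against 16.1% of all tested loci. Adipocyte markers, of cells that express Lpl, summed to 84.3, 120 and 122 CPM in the KO libraries and to 129, 162 and 113 CPM in the WT libraries. Neutrophil markers summed to 0.643, 0.919 and 0.255 CPM in the KO libraries and to 0.0889, 1.22 and 0.474 CPM in the WT libraries. The sum was lowest in WT replicate 1 and highest in WT replicate 2, but it was at most 1.22 CPM. Only 2 of the 6 neutrophil markers passed the filter. Both had positive log2 fold changes, and 1 was highest in WT replicate 2. Dendritic cell markers summed to 25.2, 23.2 and 26.6 CPM in the KO libraries and to 26.5, 30.4 and 29.9 CPM in the WT libraries. Of the mast cell markers, Kit fell in KO by edgeR, with 4.57, 5.08 and 4.97 CPM in the KO libraries, against 10.8, 9.99 and 11.8 CPM in the WT libraries (adjusted p = 0.0201), a call that was likewise lost with the omission of any KO library or of WT replicate 3. The mast cell sum was highest in WT replicate 1, where the 10 genes were low. The part of these cell types in the levels of the 10 genes was not tested.

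X-zone genes divided the WT libraries at the same place, in the opposite direction. Akr1c18, the enzyme that marks the X-zone, had 142, 2.77 and 29.1 CPM in KO replicates 1, 2 and 3, against 113, 0.0774 and 0.175 CPM in WT replicates 1, 2 and 3. It was near 0 in WT replicates 2 and 3, where Gpnmb was at 1418 and 599 CPM, and high in WT replicate 1, where Gpnmb was at 1.02 CPM. In KO replicate 2, Akr1c18 was low at 2.77 CPM, and Gpnmb was low as well, at 1.79 CPM. The part of X-zone cells in the levels of the 10 genes was not tested.

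**Figure D4:**
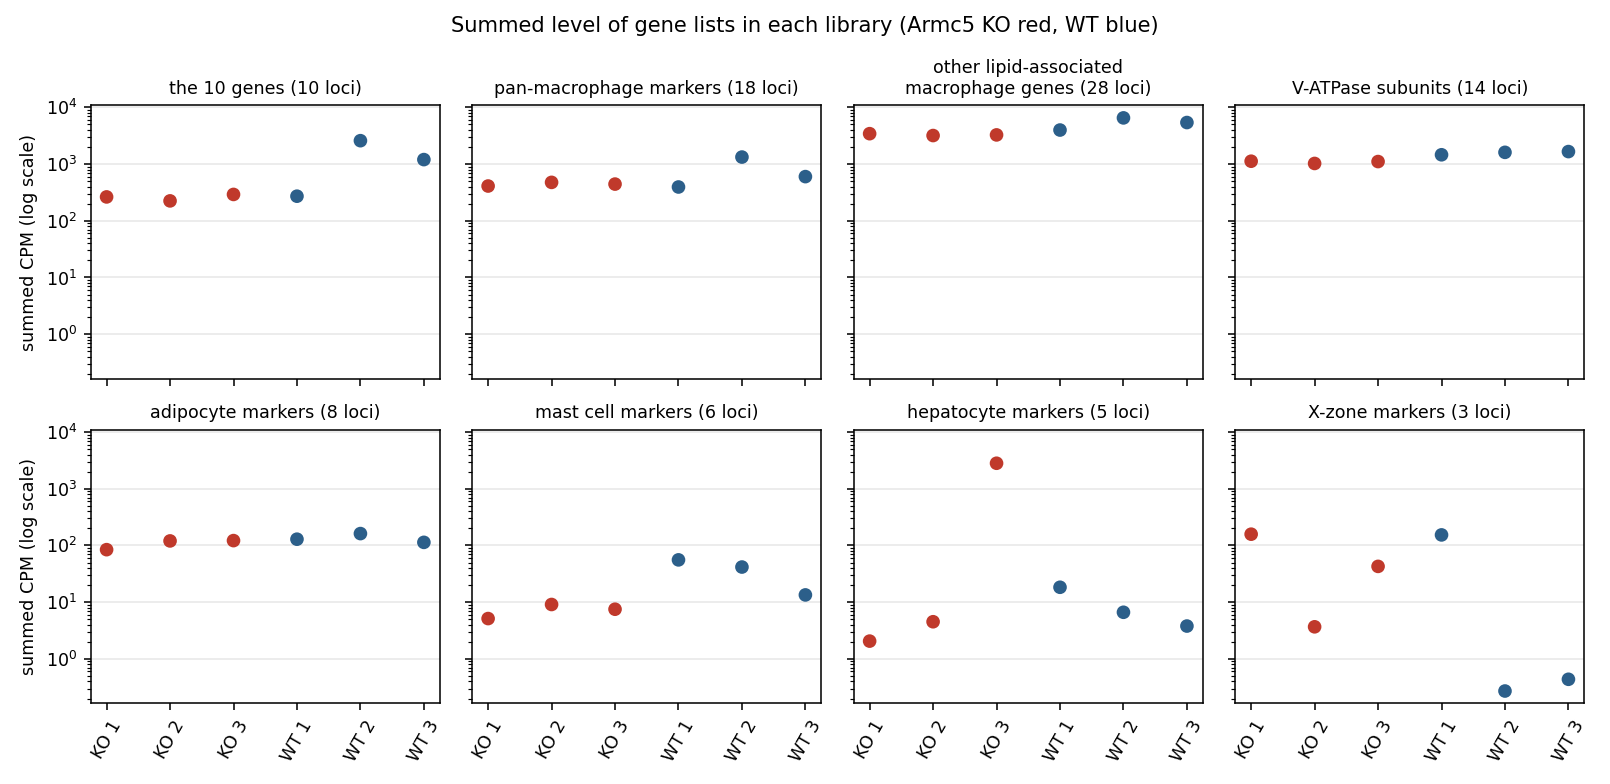
Summed CPM of gene lists in each library on a log axis, KO libraries in red and WT libraries in blue; each title gives the number of loci summed. The 10 genes reach 2585 and 1199 CPM in WT replicates 2 and 3, the general macrophage markers 1329 and 601 CPM, and the X-zone markers are at 0.271 and 0.436 CPM in the same libraries.

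The loci whose pattern over the 6 libraries was most like that of Gpnmb, Cd68 and Trem2 were ranked by the root mean square difference of centred log2(CPM + 0.01) values, among 12492 single-gene loci with a mean of at least 1 CPM. For Gpnmb the nearest was Atp6v0d2 (0.476), then Htr2b, Mmp8, Il1a and Il1rn (0.649 to 1.81). Atp6v0d2, Htr2b, Mmp8, Il1a and Il1rn all reached the mean of 1 CPM only through WT replicates 2 and 3. Their place in the ranking rests on that minimum, and for Htr2b, Mmp8 and Il1a also on the offset of 0.01 CPM. Htr2b, a serotonin receptor, had 0.154, 0 and 0.0464 CPM in the KO libraries, against 0, 4.73 and 2.99 CPM in WT replicates 1, 2 and 3. For Cd68 the nearest were Pltp (0.196), Acp5, Cd200r1, Sbk2 and Ptafr (up to 0.228). Cd200r1 and Sbk2 were under 1 CPM in the KO libraries and in WT replicate 1. They too passed the minimum only through WT replicates 2 and 3. Pltp, the phospholipid transfer protein, had 11.97, 13.4 and 16.8 CPM in the KO libraries, against 13.7, 122 and 60.6 CPM in the WT libraries. For Trem2 the nearest were Gas2l3 (0.231), Naip2, Pla2g7, Ms4a7 and Syk (up to 0.309). Pla2g7, a secreted phospholipase carried on lipoproteins, had 13.4, 17.2 and 10.8 CPM in the KO libraries, against 16.8, 61.6 and 35.2 CPM in the WT libraries. Cd68 itself stood at place 37 for Gpnmb and Trem2 at place 125, so members of the set differed from each other in how steep their pattern was.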

How the data were processed

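Total RNA of adrenal glands was depleted of rRNA, made into libraries that keep strand and read from both ends at 100 bases, per the labels' protocols. The submitters' processing notes name GRCm38, STAR, StringTie, Trimmomatic, Picard and edgeR without versions. The counting program and its strand setting are not stated in any source at hand. The authors deposited raw read counts per locus, log2 CPM values and locus lengths in base pairs, per the file headers. The deposited log2 values entered 1 alternative only, and the lengths only levels per kilobase.

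Loci without a gene name (1.39% to 2.04% of counts) were left out. The counts of the remaining 53103 loci passed through filterByExpr, which kept 21358, and through TMM scaling. edgeR 4.0.16 in R 4.3.3 gave two-sided quasi-likelihood p-values (robust glmQLFit, then glmQLFTest). This test gives no SE. Each edgeR SE was worked back as the absolute log2 fold change over the square root of the F statistic. Benjamini-Hochberg adjustment ran over every kept locus, and a locus was called at an adjusted p under 0.05. All 10 genes passed the filter. CPM use TMM-scaled library sizes, and ranges and likeness use log2(CPM + 0.01). List sums leave out loci merged from several coding genes. The fit was checked on simulated data.

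The members, the lists and the tests were chosen with earlier results of these data known. The text names all 10 genes in every library, the 5 loci most like Gpnmb, Cd68 and Trem2, up to 4 genes of each list with the smallest p, and Armc5; other genes named, such as further cell type markers and genes that overlap a locus, were chosen after their values were seen. The alternatives were RLE factors, total counts, equal Rn7sk counts, no filter, a minimum of 10 CPM in 3 libraries, a block for the replicate number, each library left out, DESeq2 1.42.0, limma-trend (limma 3.58.1) and unnamed loci included.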

Additional observations from a re-analysis of the deposited data

How the results depend on the processing

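No sign of a log2 fold change of the 10 genes changed under any alternative. In 137 comparisons a gene kept its side of the threshold and in 11 it newly passed it, namely 6 genes under DESeq2 and 5 without WT replicate 1. Atp6v0d2 and Trem2 were not tested with at least 10 CPM in 3 libraries.

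Of all loci, edgeR called 393, against 674 with total counts, 711 with equal Rn7sk counts, 5 with the replicate block, 2626 by DESeq2 and 975 by limma-trend. Leaving out 1 library gave 15 to 644 loci: 15, 22 and 37 without KO replicates 1, 2 and 3, 383, 644 and 20 without WT replicates 1, 2 and 3. DESeq2 called 6 of the 10 genes, 12 other lipid-associated, 1 TREM2-signalling and 7 general macrophage genes, and leaving out 1 library gave 0 to 5, 0 to 3, 0 to 1 and 0 to 1 of them. V-ATPase subunits, 2 by edgeR, came to 1 with total counts, 0 with equal Rn7sk counts, 0 with the replicate block, 12 by DESeq2, 1 by limma-trend and 0 to 4 with 1 library left out. The causes were not tested.

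Same-numbered KO and WT libraries did not deviate together (correlations of -0.086, 0.012 and -0.142), so the shared numbers were not taken as pairs. Under the block, 0 of the 10 genes were called. Counts of 11 limit Atp6v0d2 in KO replicate 2 and WT replicate 1.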

Other observations

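Loci high in WT replicates 2 and 3 alone went beyond the lists. In 26 loci with a mean of at least 1 CPM, both of these libraries were at least 4-fold above each of the other 4, and 4 of the 26 were Gpnmb, Atp6v0d2, Lgals3 and Mmp12. No locus among them was called by edgeR's quasi-likelihood test, with Benjamini-Hochberg adjusted p from 0.0776 to 0.213. This set was chosen by the difference it shows and is a description. Loci such as Htr2b, Mmp8 and Clec4d were under 1 CPM in the other 4 libraries and reached the mean only through these libraries, so the count of 26 depends on that minimum.

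Several of the others are known from immune cells. Slamf7, a surface receptor of immune cells, had 0.960, 0.591 and 0.611 CPM in the KO libraries, against 0.494, 23.2 and 10.3 CPM in WT replicates 1, 2 and 3. Adam8, a membrane protease of leukocytes, had 2.54, 3.57 and 3.55 CPM in the KO libraries, against 3.03, 68.2 and 34.9 CPM in the WT libraries. Il7r, the receptor of interleukin 7, had 1.32, 1.90 and 1.42 CPM in the KO libraries, against 1.46, 39.9 and 16.0 CPM in the WT libraries. In each of the 3, WT replicate 1 lay near the KO libraries.

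Il1rn, the natural antagonist of the interleukin 1 receptor, had 1.27, 0.367 and 0.557 CPM in the KO libraries, against 0.484, 26.2 and 8.39 CPM in the WT libraries. Anpep, a membrane aminopeptidase, had 9.72, 7.15 and 20.2 CPM in the KO libraries, against 13.6, 184 and 85.6 CPM in the WT libraries. Not all are immune genes. Grem1, a secreted inhibitor of bone morphogenetic proteins, had 0.707, 0.630 and 0.788 CPM in the KO libraries, against 0.879, 13.8 and 7.37 CPM in the WT libraries. Adra1a, an adrenergic receptor, had 0.797, 0.669 and 1.08 CPM in the KO libraries, against 1.46, 22.8 and 7.82 CPM in the WT libraries.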
